A study of Homo sapiens with 10 samples.

Results

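Carboxylesterases and related serine hydrolases were followed in PANC-1, an established cell line of human pancreatic ductal adenocarcinoma (PDAC), after silencing of protease-activated receptor 1 (PAR1). The set holds 7 of the 27884 genes listed in the files: the carboxylesterase genes CES1, CES2, CES3 and CES4A, and 3 genes of related lipid hydrolases, NCEH1, LIPE and LIPA. CES1 was picked because it fell more than any other gene in this same comparison, so its values are given as a description and without a test. The other 6 were picked by family and function. PAR1 is encoded by F2R and was silenced with a lentiviral short hairpin RNA from a commercial library. The groups were 5 shPAR1 libraries, numbered 1 to 5, and 5 libraries with a control hairpin (shCtrl), numbered 6 to 10. Both groups were PANC-1 cells grown in serum-supplemented medium and selected with puromycin at 2 µg/ml, and total RNA was sequenced after removal of ribosomal RNA. A single hairpin against F2R was used, so an effect of PAR1 loss and an effect of that hairpin on other transcripts cannot be told apart. No source states whether each library stems from its own culture, so p-values measure the spread between these samples, which may be technical.

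Carboxylesterases are serine hydrolases, found mostly in the endoplasmic reticulum, that cut ester and amide bonds in drugs and in lipids. CES1, the main form in liver, is also found in macrophages and takes part in the turnover of cholesteryl esters and triglycerides. CES2, the main form in the intestine, activates the prodrug irinotecan. Neutral lipids stored in droplets are released by other serine hydrolases, among them hormone-sensitive lipase (LIPE) and neutral cholesterol ester hydrolase (NCEH1) outside the lysosome and acid lipase (LIPA) inside it.

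On the GRCh38 assembly CES1 (ENSG00000198848) lay on the minus strand at chr16:55802851-55833337. The other 3 carboxylesterase genes formed a tandem on the plus strand of the same chromosome, with CES2 (ENSG00000172831) at chr16:66934444-66945096, CES3 (ENSG00000172828) at chr16:66961245-66975149 and CES4A (ENSG00000172824) at chr16:66988589-67010417. NCEH1 (ENSG00000144959) lay at chr3:172630249-172711218, LIPE (ENSG00000079435) at chr19:42401514-42427388 and LIPA (ENSG00000107798) at chr10:89213569-89414557, all on the minus strand. Close to CES1 the annotation (GENCODE 44) placed a pair of pseudogene copies on the opposite strand, CES1P1 at chr16:55760642-55793960 and CES1P2 at chr16:55728115-55750111.

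The copies bear on what a read of 50 bases can tell. The canonical CES1 transcript has 14 exons and 1946 bases. All 14 exons had a counterpart at CES1P1, with 65 mismatches over 1944 aligned bases (96.7% identity), and 4 of the exons had no mismatch. Exon 5, which holds the codon of the active-site serine, is shown for both genes because it has 5 mismatches to the copy. Exon 6 is shown because it has none. Capitals mark the bases that differ between CES1 and CES1P1. Exon 5 of CES1 is at chr16:55821368-55821521 (minus strand), its counterpart at chr16:55772369-55772522 (plus strand) and exon 6 of CES1 at chr16:55820372-55820479 (minus strand), all on GRCh38.
CES1 exon 5: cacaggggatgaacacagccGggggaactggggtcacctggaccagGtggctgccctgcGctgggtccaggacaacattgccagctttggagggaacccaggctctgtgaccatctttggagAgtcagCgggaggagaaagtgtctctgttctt
CES1P1 counterpart of exon 5: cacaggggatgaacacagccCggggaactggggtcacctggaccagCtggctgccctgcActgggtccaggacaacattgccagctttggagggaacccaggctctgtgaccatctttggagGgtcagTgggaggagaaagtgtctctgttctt
CES1 exon 6, same letters in CES1P1: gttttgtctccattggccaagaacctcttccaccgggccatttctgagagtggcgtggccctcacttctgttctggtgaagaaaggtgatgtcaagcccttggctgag
Among all 2163 windows of 50 bases in the annotated exons of CES1, 904 (41.8%) also occurred elsewhere in the genome, 750 of them (34.7% of all) in CES1P1. This share was 7.02% for CES2, 6.11% for CES3, 3.38% for CES4A, 0.328% for LIPA and 0% for NCEH1 and LIPE. The sources used here do not say whether reads with several matches were counted.

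Values were deposited on a log2 scale, after each count had been divided by the size factor of its library and 1 had been added, and whole counts were recovered from them. An shPAR1 library held 15335264 to 22876248 counts and an shCtrl library 18317098 to 25369056. A gene was tested if its normalized count was at least 10 in at least 5 libraries, which left 17518 genes. They were compared with limma at a Benjamini-Hochberg adjusted p below 0.05, and 40.9% were called, 19% higher and 21.9% lower in shPAR1 cells. The share of counts from mitochondrially encoded genes was 7.37% to 9.08% in shPAR1 and 5.71% to 7.07% in shCtrl libraries. F2R was 10.20, 10.24, 10.32, 10.18 and 10.21 on the log2 scale in shPAR1 cells and 11.81, 11.75, 11.75, 11.80 and 11.82 in shCtrl cells. In normalized counts it was 66.0% lower in shPAR1 cells.

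CES1 was nearly lost from shPAR1 cells. Its counts were 15, 57, 37, 28 and 44 in shPAR1 libraries 1 to 5 and 2089, 2329, 2017, 2067 and 2690 in shCtrl libraries 6 to 10. On the log2(normalized count + 1) scale these were 4.30, 5.64, 5.42, 4.95 and 5.53 in shPAR1 cells and 10.89, 11.03, 11.09, 11.03 and 11.04 in shCtrl cells. Every shPAR1 library lay far below every shCtrl library, and the closest pair of libraries of the 2 groups still differed 38.8-fold (the farthest 116-fold). The log2 fold change was -5.85, given without an interval because CES1 was chosen by this value. In normalized counts CES1 averaged 36.9 ± 12.4 in shPAR1 cells and 2072 ± 105 in those with shCtrl (SD, n = 5 each), so that 1.78% of the shCtrl mean was left, with single shPAR1 libraries at 0.901% to 2.36%.

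The low counts in shPAR1 cells were still well above 0. In CPM, which are counts scaled to an equal library total, the lowest shPAR1 library, number 1, had 0.978 with an exact 95% Poisson interval of 0.547 to 1.61, and the highest, number 2, had 2.49 with an interval of 1.89 to 3.23. These intervals cover counting error only. The intervals of these libraries, the extremes of 5, did not overlap. The lowest shCtrl library, number 6, had 94.5 CPM (90.5 to 98.7). On the log2 scale the SD of CES1 was 0.55 over the shPAR1 libraries and 0.075 over the shCtrl libraries, at far higher counts.

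**Figure D1:**
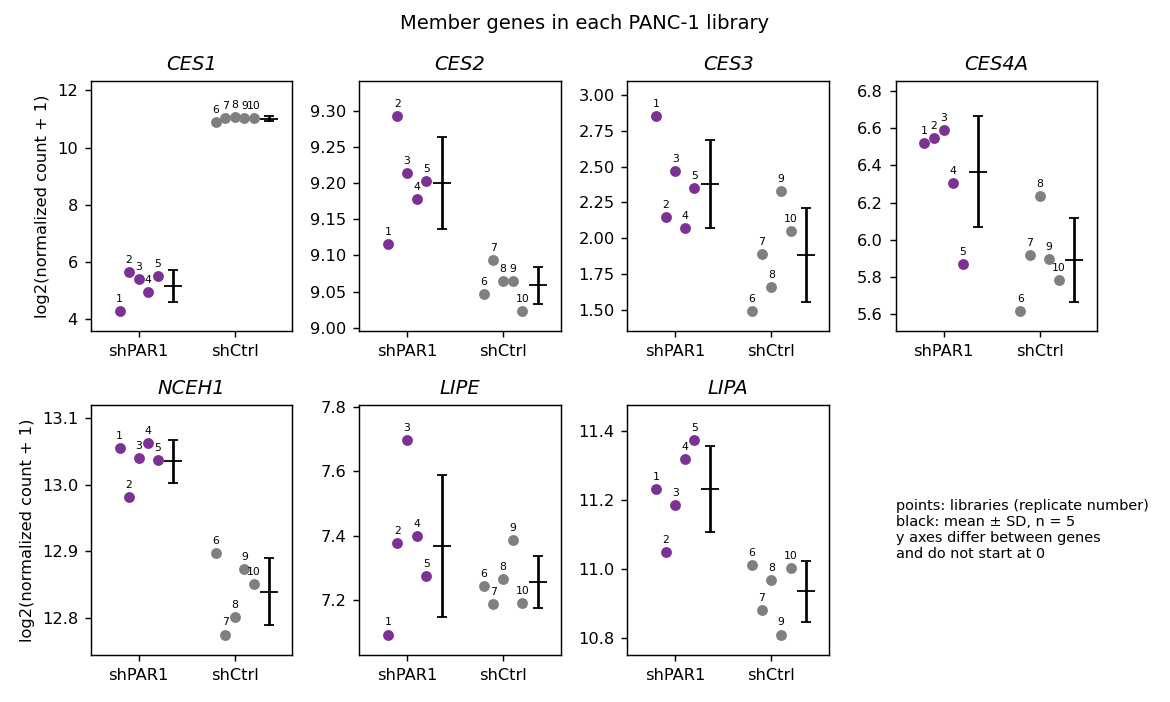
Expression of the 7 genes in each library on the log2(normalized count + 1) scale, with shPAR1 libraries (purple, 1 to 5) left of shCtrl libraries (gray, 6 to 10) and the mean ± SD of 5 libraries in black. The y axes differ between genes: CES1 spans 4.30 to 11.09, whereas CES2 spans 9.02 to 9.29.

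CES1 held the first place among the 17518 tested genes ordered by log2 fold change, as its choice fixes. The next 4 were NEGR1, which encodes a neuronal adhesion molecule, at -4.14, TMSB15A, a thymosin that binds actin, at -4.13, CRACDL at -3.93 and NCKAP5 at -3.86. In all, 10 genes (0.0571%) had a log2 fold change of -3 or less. These rest on fewer counts than CES1: NEGR1 had 7 counts over the shPAR1 and 211 over the shCtrl libraries, TMSB15A had 3 and 133, and CES1 had 181 and 11192. The 5 genes whose profile over the 10 libraries was most like that of CES1, after each gene's mean was subtracted, were CRACDL (root mean square difference 1.01 log2 units), TMSB15A (1.05), NCKAP5 (1.09), NEGR1 (1.11) and EFEMP1 (1.12), a gene of the extracellular matrix with a log2 fold change of -3.65. The values were not scaled, so this measure mostly follows the size of the fall, by which CES1 was chosen. The 4 genes next in order of fall are thus among these 5, and the likeness is no separate result.

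**Figure D2:**
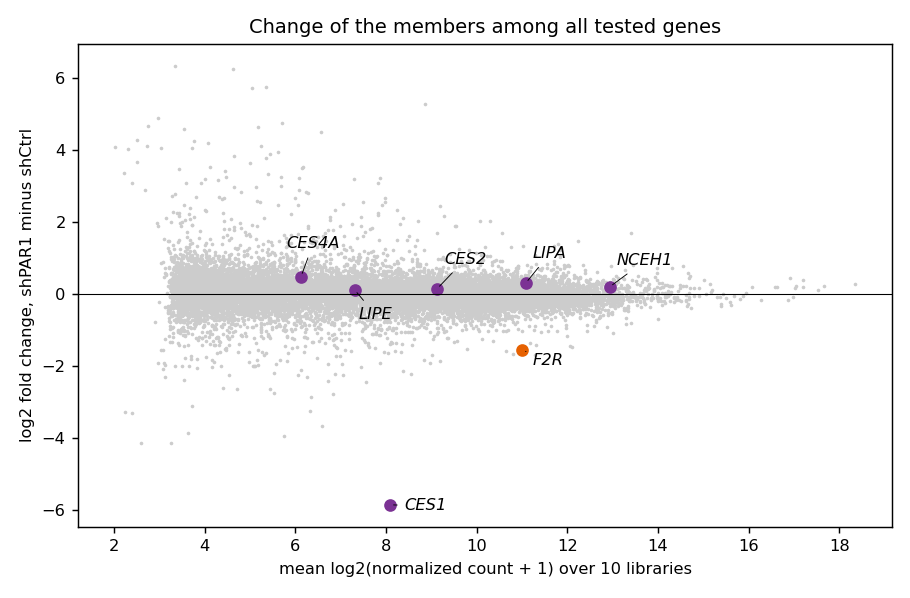
Log2 fold change (shPAR1 minus shCtrl) against the mean log2(normalized count + 1) over 10 libraries for the 17518 tested genes (gray), with the tested members in purple and F2R in orange. CES1 at -5.85 lies below all other genes, and the other tested members lie between 0.11 and 0.48; CES3 was below the count minimum and is not shown.

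None of the other members passed the test as lower. Of these 6 genes, 4 were higher in shPAR1 cells at an adjusted p below 0.05 from limma, 0 were lower and 2 did not pass (of all tested genes 40.9% were called, 19% as higher), and all 6 fold changes were above 0. No member besides CES1 was lower at an unadjusted p below 0.05 either. For 3 of the 6 genes the shPAR1 and shCtrl libraries did not overlap, which was so for 29.2% of all tested genes. The log2 fold changes were small in size next to that of CES1, with the largest at 0.49 for CES3, which did not pass, and at 0.48 for CES4A, which did.

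CES2 was measured at 553.5, 625.9, 593.0, 578.0 and 588.0 normalized counts in shPAR1 cells and at 527.8, 545.2, 534.5, 534.6 and 519.4 in shCtrl cells. The groups did not overlap, but the lowest shPAR1 library (number 1) lay close to the highest shCtrl library (number 7). The mean was 10.4% higher in shPAR1 cells. This is a log2 difference of 0.14 (standard error 0.050, 95% interval 0.04 to 0.25, adjusted p = 0.0308 from limma). An exact two-sided permutation test of 5 against 5 libraries gave p = 0.00794, the smallest it can give. The limma call was lost without any 1 of shPAR1 libraries 2 and 3 and shCtrl libraries 6, 8, 9 and 10 (adjusted p = 0.0504 to 0.0797 from limma) and when no filter was applied (adjusted p = 0.0557 from limma).

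The start of CES2 lies 21 bases from that of CIAO2B, a gene for cytosolic iron-sulfur cluster assembly that runs the other way, and the region between and around both starts is shown as RefSeq gives it on GRCh38.p14 at chr16:66934221-66934520 (plus strand), with the 22 bases from the CIAO2B start to the CES2 start in capitals, because the paired genes can be compared.
CES2 promoter: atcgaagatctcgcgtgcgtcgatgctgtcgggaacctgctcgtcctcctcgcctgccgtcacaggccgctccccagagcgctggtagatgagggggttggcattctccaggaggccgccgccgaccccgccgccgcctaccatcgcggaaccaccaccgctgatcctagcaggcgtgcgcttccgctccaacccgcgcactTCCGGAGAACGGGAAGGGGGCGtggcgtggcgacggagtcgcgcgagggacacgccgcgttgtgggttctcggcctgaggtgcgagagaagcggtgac
CIAO2B had a log2 fold change of -0.16 (adjusted p = 0.074 from limma), so the pair did not move together past the threshold. Its groups did not overlap, narrowly, with shPAR1 libraries at most at 9.649 and shCtrl libraries at least at 9.652 on the log2 scale. The shift of CIAO2B was thus opposite in direction to that of CES2. The promoter table used here matched no entry to CES1 and CES3.

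CES4A is a less studied member of the family. It was at 90.8, 92.5, 95.2, 78.0 and 57.5 normalized counts in shPAR1 cells and at 48.1, 59.4, 74.4, 58.5 and 54.1 in shCtrl cells. The groups overlapped, since shPAR1 library 5 lay within the shCtrl range. The log2 fold change was 0.48 (standard error 0.15, 95% interval 0.16 to 0.79, adjusted p = 0.0162 from limma, exact two-sided permutation p = 0.0317). An unnamed gene model on the opposite strand, ENSG00000280334, overlaps CES4A and had 99 counts in shPAR1 and 66 in shCtrl cells (log2 fold change 0.70, adjusted p = 0.023 from limma). Without a stated strand setting of the counting, reads of both cannot be told apart.

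CES3 was barely detected. It had 5, 4, 4, 3 and 4 counts in shPAR1 libraries and 2, 3, 2, 4 and 4 in shCtrl libraries, below the minimum in all 10, and is therefore reported from the fit without a filter, in which 25.8% of all 27884 genes were called. Its log2 fold change there was 0.49 (standard error 0.36, 95% interval -0.26 to 1.24, adjusted p = 0.371 from limma) and did not pass, whereas the exact two-sided permutation test, which is not adjusted over genes, gave p = 0.0397. The groups overlapped. CES5A, the remaining carboxylesterase gene, was not analysed here.

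NCEH1, which hydrolyses cholesteryl esters at the endoplasmic reticulum, was the most abundant member. It had 8512, 8086, 8423, 8555 and 8403 normalized counts in shPAR1 cells and 7631, 7009, 7137, 7500.0 and 7389 in shCtrl cells. All shPAR1 libraries lay above all shCtrl libraries, by 14.5% on average. The log2 difference was 0.20 (standard error 0.037, 95% interval 0.12 to 0.27, adjusted p = 3.76e-04 from limma).

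LIPA, the lysosomal acid lipase that releases cholesterol from lipoprotein cholesteryl esters, had 2407, 2119, 2331, 2554 and 2654 normalized counts in shPAR1 cells and 2065, 1885, 2004, 1796 and 2053 in shCtrl cells. The groups did not overlap, and the mean was 23.1% higher in shPAR1 cells. The log2 fold change was 0.30 (standard error 0.058, 95% interval 0.18 to 0.42, adjusted p = 4.56e-04 from limma). For both NCEH1 and LIPA the exact two-sided permutation test gave p = 0.00794. The long annotated span of LIPA holds the interferon-induced genes IFIT1, IFIT2 and IFIT3 on the opposite strand, which had log2 fold changes of 0.04, 0.09 and 0.24 and did not pass.

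LIPE, hormone-sensitive lipase of fat cells, had 135.6, 165.3, 206.4, 167.7 and 153.9 normalized counts in shPAR1 cells and 150.5, 144.9, 153.0, 166.4 and 145.2 in shCtrl cells. The groups overlapped throughout, with shPAR1 library 1 the lowest and shPAR1 library 3 the highest of all 10. The log2 fold change was 0.11 (standard error 0.099, 95% interval -0.10 to 0.32, adjusted p = 0.393 from limma, exact two-sided permutation p = 0.325).

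Levels of different genes were compared as normalized counts per kilobase of exon. In shPAR1 cells the order was NCEH1 (1746 ± 38, SD, n = 5), LIPA (493 ± 42), CES2 (110.0 ± 4.9), LIPE (32.1 ± 5.0), CES4A (16.5 ± 3.1), CES1 (12.6 ± 4.2) and CES3 (0.872 ± 0.24). In shCtrl cells it was NCEH1 (1525 ± 53, SD, n = 5), CES1 (705 ± 36), LIPA (401 ± 24), CES2 (99.6 ± 1.8), LIPE (29.5 ± 1.7), CES4A (11.7 ± 1.9) and CES3 (0.562 ± 0.18). CES1 was thus second to NCEH1 in shCtrl cells and stood between CES4A and CES3 in shPAR1 cells, where its library range overlapped that of CES4A. No other neighbours in either order overlapped, and the order of the other 6 genes among themselves was the same in both groups. The order was also the same when the length of the longest transcript was used. For CES1, 41.8% of the 50-base exon windows also occur elsewhere in the genome. If reads with several matches were not counted, its level and its place in this order could be understated.

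The 4 carboxylesterase genes together gave 140.0 ± 9.2 normalized counts per kilobase in shPAR1 cells and 817 ± 38 in those with shCtrl (SD, n = 5 each). CES1 made up 8.87 ± 2.6% of this sum in shPAR1 cells and 86.3 ± 0.48% in shCtrl cells. CES2 took 78.7 ± 2.0% in shPAR1 cells and 12.2 ± 0.57% in shCtrl cells. Most of the sum was thus CES2 in shPAR1 and CES1 in shCtrl cells. Without CES1 the sum was 127 ± 6.0 in shPAR1 and 112 ± 3.1 in shCtrl cells, so the gain of the other 3 genes was small beside the loss of CES1. The limit on the level of CES1 given above also applies to these sums and shares.

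**Figure D3:**
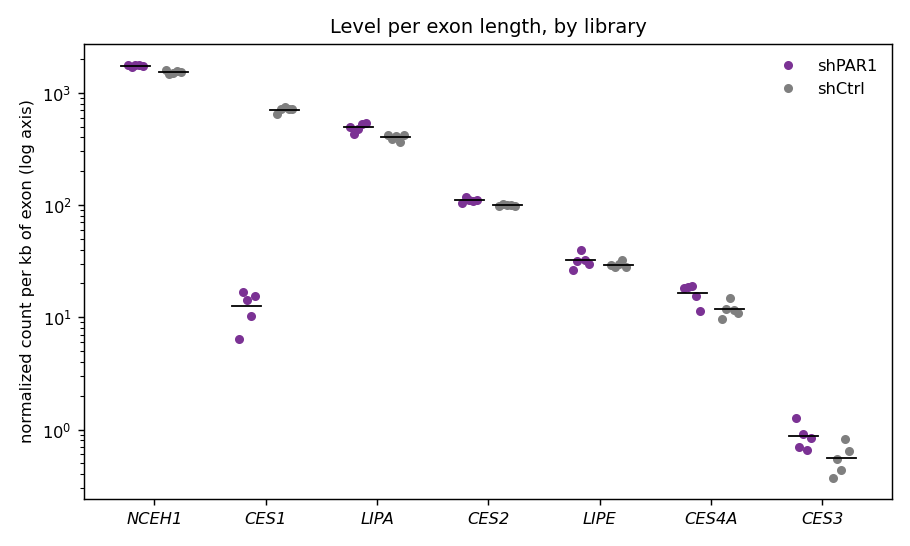
Normalized count per kilobase of exon (log axis) of the 7 genes in each library, with shPAR1 (purple) left of shCtrl (gray) and the mean of 5 libraries as a black line. CES1 is at 12.6 in shPAR1 and 705 in shCtrl cells, whereas the means of the other 6 genes lie far closer together.

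The pseudogene copies had few counts in most libraries. CES1P1 had 0 counts in all 5 shPAR1 libraries and 3, 4, 0, 3 and 161 in shCtrl libraries 6 to 10. Its signal thus rested on shCtrl library 10, in which CES1 itself was not raised. CES1P2 had 2, 0, 0, 2 and 1 counts in shPAR1 and 1, 3, 3, 2 and 7 in shCtrl libraries.

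The genomic neighbours of CES1 are given as a description. CES1 was chosen as the most fallen gene, so it is no separate result that no neighbour fell as far. Of 69 annotated genes that start within 1 Mb of the CES1 start, 32 were in the files and 18 were tested. With limma 3 of the 18 were higher and 8 lower in shPAR1 cells (61.1% called, against 40.9% of all tested genes), with a median log2 fold change of -0.15, against -0.0046 over all tested genes. GNAO1, which encodes the alpha subunit of the G protein Go, was at -2.24 (standard error 0.13, adjusted p = 2.88e-10 from limma), and the metallothionein gene MT1F was at 1.42 (standard error 0.30, adjusted p = 8.29e-04 from limma). Metallothionein genes are near-identical in part, so reads could be split among them.

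Around CES2, 58 of 103 annotated genes were tested, of which 10 were higher and 9 lower in shPAR1 cells, with a median of 0.05. Of these 58 genes 32.8% were called, against 40.9% of all tested genes. The 10 higher genes include the member CES4A (0.48) and the gene model that overlaps it, ENSG00000280334 (0.70). CBFB, a partner subunit of the RUNX factors, was at -1.35 (standard error 0.088, adjusted p = 8.72e-10 from limma) and EXOC3L1 at 1.07 (standard error 0.31, adjusted p = 0.00986 from limma).

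**Figure D4:**
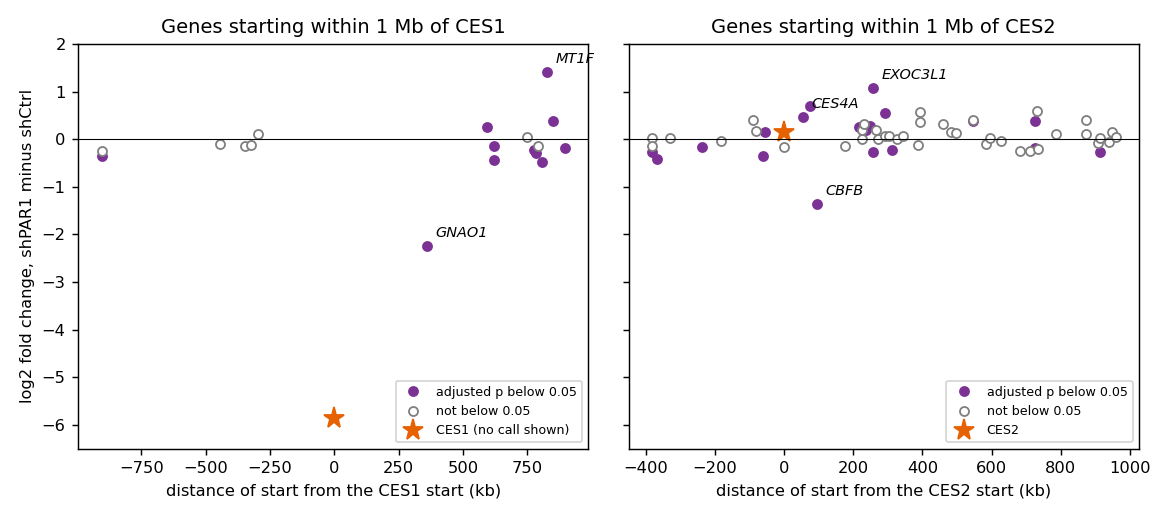
Log2 fold change (shPAR1 minus shCtrl) of tested genes against the distance of their start from that of CES1 (left) or CES2 (right) along the chromosome, in kb, with genes at an adjusted p below 0.05 filled. Apart from CES1 at -5.85, GNAO1 at -2.24 is the lowest of the genes in both windows.

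Relatives of the carboxylesterases by fold were mixed. Of 18 listed genes 6 were tested, with 3 higher, 1 lower and a median log2 fold change of 0.34. Of these 6 genes 66.7% were called, against 40.9% of all tested genes. NLGN3 and NLGN2, adhesion proteins of the synapse that have an esterase fold without the activity, were at 1.20 (standard error 0.35) and 0.63 (standard error 0.063). ACHE, acetylcholinesterase, was at 1.12 (standard error 0.16) and NOTUM, which removes the lipid from Wnt proteins, fell by 0.85 (standard error 0.15). The esterase D gene ESD (0.03) and the bile salt-stimulated lipase gene CEL (0.05) did not pass.

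Among 20 tested genes of neutral lipid hydrolysis 9 were higher in shPAR1 cells and 0 were lower with limma (median 0.16). Over all tested genes 40.9% were called, 19% as higher, against 45% called in this list. At an unadjusted p below 0.05, 10 were higher and 3 lower, and with voom weights 10 of the same 20 were higher and 0 lower. G0S2, an inhibitor of adipose triglyceride lipase that was below the count minimum with 2 counts over the shPAR1 and 13 over the shCtrl libraries, was lower in the fit of all genes without a filter (-1.34, adjusted p = 0.030 from limma) and in that with voom weights (-1.73, adjusted p = 0.044 from limma). The genes with the largest rises were PNPLA6 (0.83) and PNPLA7 (0.60), lysophospholipases, DAGLA (0.70), which makes diacylglycerol into 2-arachidonoylglycerol, HILPDA (0.56), another inhibitor of that lipase, and PNPLA8 (0.51), a phospholipase. PNPLA2, adipose triglyceride lipase itself, was at -0.15 (adjusted p = 0.064 from limma), and it passed without shPAR1 library 2 (adjusted p = 0.017 from limma) or shCtrl library 6 (adjusted p = 0.032 from limma). MGLL, monoacylglycerol lipase, was at 0.28 (adjusted p = 0.041 from limma), a call that was lost without any 1 of shPAR1 libraries 2, 3 and 5 and shCtrl libraries 6, 8 and 10 (adjusted p = 0.059 to 0.12 from limma).

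In the list of droplet coat and triglyceride synthesis genes, 8 of 22 tested were higher and 4 lower (median 0.12). Of these 22 genes 54.5% were called, against 40.9% of all tested genes. PLIN2, the droplet coat protein found in most cells, was at 0.63 (standard error 0.083) and the acyltransferase gene AGPAT4 at 0.44 (standard error 0.062). LPIN1, a phosphatidate phosphatase, fell by 0.65 (standard error 0.046) and ACSL1, which activates fatty acids, fell by 0.62 (standard error 0.057), whereas LPIN3 was at 0.40 (standard error 0.079).

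Genes of the cholesteryl ester cycle and of cholesterol efflux were called in 10 of 17 tested cases, all higher in shPAR1 cells (median 0.34). Over all tested genes 40.9% were called, 19% as higher, against 58.8% called in this list. With limma 0 were lower, also at an unadjusted p below 0.05, and with voom weights 0 were lower as well. ABCA1 (1.51, standard error 0.065) and ABCG1 (1.39, standard error 0.25) export cholesterol, APOE (1.32, standard error 0.063) carries it, LRP1 (0.91, standard error 0.069) takes up lipoproteins and NPC2 (0.70, standard error 0.057) moves cholesterol out of the lysosome. SOAT1, which makes the cholesteryl esters that CES1 and NCEH1 are known to cut, was at -0.01 (standard error 0.043, adjusted p = 0.874 from limma).

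Of 20 tested transcription factors or cofactors listed for acting on carboxylesterase or related lysosomal genes, 11 were higher and 3 lower (median 0.16). Over all tested genes 40.9% were called, against 70% in this list. NR5A2 (2.55, standard error 0.093), MITF (2.11, standard error 0.16), NR0B2 (1.57, standard error 0.19), FOXO1 (0.97, standard error 0.20) and PPARG (0.82, standard error 0.051) were the most changed. NFE2L2, the oxidative stress factor known to act on CES1 in liver cells, was at 0.12 (adjusted p = 0.024 from limma), a call that was lost without any 1 of shPAR1 libraries 3 and 4 and shCtrl libraries 7 and 8 (adjusted p = 0.054 to 0.064 from limma). The liver factors HNF4A and NR1I2 were not analysed here.

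Among partners in prodrug and ester metabolism, 5 of 11 tested were higher and 1 lower (median 0.14). Of these 11 genes 54.5% were called, against 40.9% of all tested genes. The drug exporter genes ABCG2 (2.22, standard error 0.18) and ABCC1 (0.72, standard error 0.044) were higher in shPAR1 cells, as were the hydrolase genes CMBL (0.30, standard error 0.058) and PON2 (0.27, standard error 0.045). The nucleoside transporter gene SLC29A1 fell by 0.21 (standard error 0.048).

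**Figure D5:**
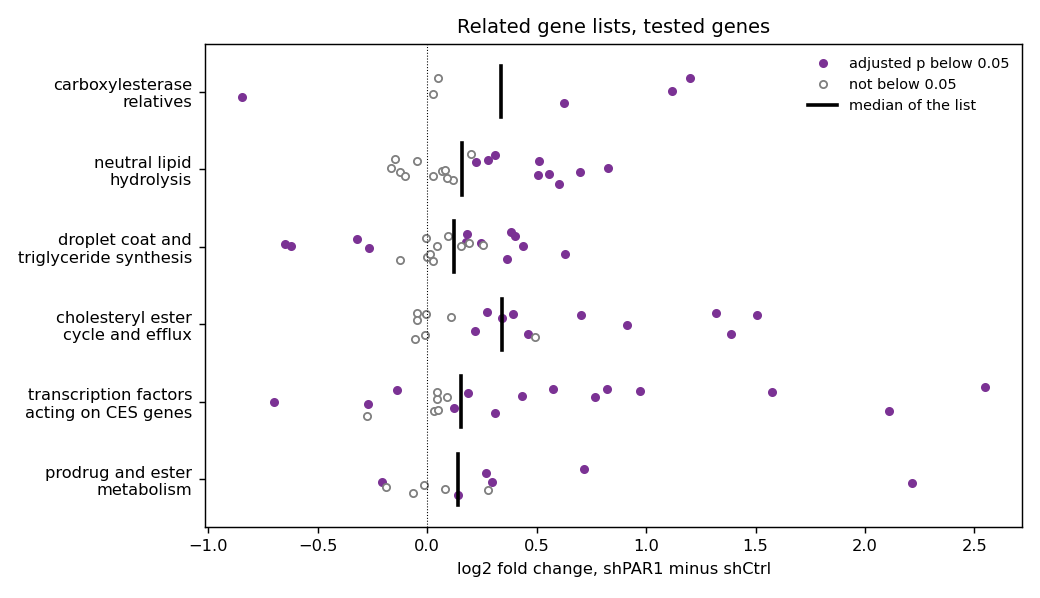
Log2 fold change (shPAR1 minus shCtrl) of the tested genes of 6 related lists, with genes at an adjusted p below 0.05 filled and the median of each list as a black bar. The list medians lie between 0.12 and 0.34, and the lowest gene, NOTUM, is at -0.85.

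Since CES1 marks hepatocytes and macrophages in tissue, markers of other cell types were read as well. Of 16 hepatocyte markers 7 were in the files and 2 were tested, with CPS1, an enzyme of the urea cycle, at 2.19 and CYP2E1 at -0.65. Their summed normalized counts were 495.5 to 549.2 in shPAR1 and 143.3 to 173.2 in shCtrl libraries, and most of these sums was CPS1 alone. CYP2E1 was lower in shPAR1 cells without overlap between the groups (adjusted p = 0.0056 from limma). Of 15 monocyte and macrophage markers 8 were in the files and 2 were tested, 0 of them called by limma (0 at an unadjusted p below 0.05 and 0 with voom weights), with sums of 43.1 to 57.7 in shPAR1 and 44.2 to 58.1 in shCtrl libraries. ITGAX, an integrin subunit of macrophages and dendritic cells that was below the count minimum, had 12 counts over the shPAR1 and 69 over the shCtrl libraries, and the groups did not overlap. It was lower in the fits of all genes without a filter (-1.84, adjusted p = 4.80e-04 from limma) and with voom weights (-2.20, adjusted p = 0.0021 from limma). PTPRC, the pan-leukocyte marker, had 7 counts over the shPAR1 and 7 over the shCtrl libraries.

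All 6 fibroblast and stellate markers in the files were called, 3 higher and 3 lower (of all tested genes 40.9% were called). The collagen gene COL3A1 (5.28), PDGFRA (0.94) and PDGFRB (0.37) were higher, and ACTA2 (-0.97), THY1 (-0.76) and COL1A1 (-0.43) were lower. Their sums were 6875 to 8058 in shPAR1 and 5898 to 6546 in shCtrl libraries. Within these sums COL3A1 averaged 2890 normalized counts in shPAR1 and 74.5 in shCtrl cells. Of 12 epithelial and ductal markers 8 were in the files and tested, with sums of 40255 to 46455 in shPAR1 and 58414 to 61637 in shCtrl libraries. Of these 2 were higher and 5 lower (87.5% called, against 40.9% of all tested genes). CDH1 (1.04) and MUC1 (0.43) were higher. The keratin genes KRT19 (-0.82), KRT18 (-0.35) and KRT8 (-0.34) were lower, as were EPCAM (-0.78) and SOX9 (-0.13), and KRT7 (-0.45) did not pass. KRT8 averaged 14.47 in shPAR1 and 14.81 in shCtrl cells on the log2 scale. The part of the markers in the loss of CES1 was not tested. In bulk RNA, fewer cells that express a gene and less RNA per cell cannot be told apart.

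The hairpin sequence was not used here. The longest run of bases that an annotated CES1 transcript shares with an F2R transcript was 13 bases, and for the other members it was 12 to 23 bases, the longest being in CES4A. Whether the hairpin acts on a member directly was not tested.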

How the data were processed

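The 10 PANC-1 libraries were single reads of 50 bases from RNA without ribosomal RNA. Per the labels, the authors used FastQC 0.11.5, Trimmomatic 0.36, HISAT2 2.1.0 on GRCh38, HTSeq and DESeq2. The sources used here do not give the strand setting. The authors deposited log2(count divided by size factor + 1) for genes with at least 10 counts in all. Whole counts were recovered, with every value within 0.01 of a whole number. Groups came from the sample labels, which match the file headers in 10 of 10 libraries, and no libraries were identical.

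Linear models with a trended prior variance were fitted with limma 3.58.1 in R 4.3.3 to the deposited log2 values. Genes needed a normalized count of 10 or more in 5 or more libraries, and p-values were adjusted by Benjamini-Hochberg over all of them. The step was tested on simulated data. On the log2(normalized count + 1) scale the fold changes of low genes are understated. Exact permutation tests used all divisions into 5 and 5 libraries. Python 3.11.15 with numpy 2.4.6 and pandas 2.3.3 served for tables. Of the gene identifiers, 27361 matched GENCODE 44, which gave symbols, coordinates and lengths, and the CES2 promoter came from RefSeq (GRCh38.p14).

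The members and lists were chosen with earlier results of these data known. Named genes are the members, F2R, the carboxylesterase pseudogenes, the 4 genes lowest after CES1, the 5 nearest to its profile, neighbours with an absolute log2 fold change of at least 1, up to 5 most changed called genes per list, and SOAT1, PNPLA2, MGLL, NFE2L2, HNF4A and NR1I2. CIAO2B, ESD, CEL, G0S2, overlapping genes, markers and genes called only under an alternative were named after their values were seen. The alternatives tried were limma's voom on recovered counts with quality weights, no filter, a filter of 1 CPM in each library of 1 group, scaling without mitochondrial genes, quantile normalization, a pseudocount of 5, each library left out in turn, and the length of the longest transcript. A planned comparison of protein sequences was not made, and CES1 was compared with its copies by exon instead.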

Additional observations from a re-analysis of the deposited data

Results flagged for a closer look

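CES1P1, the pseudogene copy next to CES1, was at 126 normalized counts in shCtrl library 10, against 0 to 3.60 in the other 4 shCtrl libraries and 0 in all 5 shPAR1 libraries. In normalized counts the gap between library 10 and the next shCtrl library was 0.972 of the range of the group. This is beyond Dixon's 95% critical value for 5 samples, which chance alone exceeds in about 1 in 20 groups of normally distributed values. On the log2 scale the gap did not exceed that value. The rule was applied to the members, both pseudogenes and F2R, in both groups and on both scales, so some flags can arise by chance. No other gene in the files had at least 100 counts in this library and at most 10 in every other one. CES1 was at 2111 normalized counts in shCtrl library 10 and at 1894 to 2173 in the other shCtrl libraries. The cause was not tested.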

How the results depend on the processing

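CES1 kept its fall under each alternative, with a log2 fold change of -5.97 to -5.63 when single libraries were left out. NCEH1, LIPA and CES4A remained higher past the threshold in each setting, and LIPE and CES3 passed in none. CES2 stayed higher, but without a filter its log2 fold change of 0.14 no longer passed (standard error 0.054, against 0.050 with the filter). With single libraries left out the CES2 fold change was 0.12 to 0.16, not passing in 6 of the 10 fits. SOAT1, which was not called, changed sign to 0.029 after quantile normalization, and with single libraries left out it was -0.031 to 0.0073, above 0 without shPAR1 library 4, shCtrl library 6 or shCtrl library 10. Without a filter AADAC (1.36) and NLGN1 (1.29) joined the carboxylesterase relatives that were higher, and CES1P1 (-2.62, which rests on shCtrl library 10) joined those that were lower, G0S2 (-1.34) and ITGAX (-1.84) were lower in neutral lipid hydrolysis and among macrophage markers, and OLR1 (2.34) and TF (0.81) were higher in the cholesterol list and among hepatocyte markers. With voom weights DCK (-0.19) and GPAM (-0.13) were also lower and FAAH (0.28) and DGAT1 (0.22) higher, and when all genes were fitted with these weights G0S2 (-1.73), ITGAX (-2.20), OLR1 (2.85), TF (0.91), AADAC (1.71), NLGN1 (1.43) and PLIN5 (1.13) passed too. No scaling moved the median of all tested genes by more than 0.1. Levels per kilobase were higher with the longest transcript (CES1 at 16.9 in shPAR1 and 951 in shCtrl cells). No paired analysis was possible because the groups share no replicate numbers. CES3 and the pseudogenes had few counts in most libraries, which limits what their values show.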
